A study of Homo sapiens with 12 samples.

Results

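The genes described here are 10 protein-coding genes known or thought to respond to FOXO transcription factors when growth-factor signalling is low: TSC22D3, N4BP2L1, YPEL2, SESN3, IRS2, CITED2, PIK3IP1, CCNG2, BCL6 and KLHL24. They are 10 of the 67049 gene IDs counted in every library, and all 10 were among the 20394 genes that passed the filter on low counts. They were chosen by name with their K700E-against-WT differences already known, so those differences are given as a description with no test. A tool's call, or lack of one, for any of the 10 in those contrasts is likewise no test of it. Nothing is read from the direction they share. The RNA came from HEK293T cells, a human embryonic kidney line, 48 h after transient Lipofectamine 2000 transfection with pIRES2-SF3B1 WT or pIRES2-SF3B1 K700E. SF3B1 belongs to the U2 snRNP, which recognises the branch point of introns, and K700E is a substitution that recurs in blood cancers. Nuclear and cytoplasmic RNA were sequenced from cells with each construct, giving 4 groups of 3 libraries. The series title names mRNA export and the contact between SF3B1 and THOC5, which belongs to the THO export complex. All 4 groups carry a plasmid, all keep their own SF3B1 gene, and no untransfected sample was analysed here. The labels do not state that the 3 libraries of a group were separate cultures, so a p-value here measures how far these libraries differ, a spread that may be technical. The libraries are bulk, so more cells carrying an RNA and more of it per cell cannot be told apart.

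FOXO proteins are forkhead transcription factors under the control of insulin and growth factors. When receptors signal through PI3K, the kinase AKT phosphorylates FOXO, which leaves the nucleus and is held in the cytoplasm by adaptor proteins. When the signal falls, FOXO returns to the nucleus and raises genes for cell-cycle arrest, stress resistance and catabolism, together with genes that feed back on insulin signalling. FOXO activity is set mainly by the place and modification of the protein, which RNA counts do not measure.

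The promoter sequences of 5 of the genes are shown because FOXO factors bind a short forkhead motif. They are TSC22D3, N4BP2L1, YPEL2 and KLHL24, whose cytoplasmic levels with K700E and WT did not overlap, and IRS2, whose window holds a motif match. The letters searched were GTAAACA with its variants ATAAACA, which differs in its opening base, and CAAAACA, each on both strands. The search covered RefSeq windows on GRCh38.p14 from 250 bases before to 50 bases after each annotated start. The lines give the part of the window before the start that lies in no annotated exon, 5′ to 3′ on the strand of the gene, and capitals mark a motif match read from the other strand.
TSC22D3, chrX:107717136-107717312, minus strand: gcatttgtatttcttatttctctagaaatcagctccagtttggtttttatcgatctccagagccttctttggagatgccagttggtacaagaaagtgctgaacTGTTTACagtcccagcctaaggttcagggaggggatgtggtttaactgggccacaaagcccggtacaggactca
N4BP2L1, chr13:32428312-32428380, minus strand: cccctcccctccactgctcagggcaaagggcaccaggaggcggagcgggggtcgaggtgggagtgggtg
YPEL2, chr17:59331405-59331654, plus strand: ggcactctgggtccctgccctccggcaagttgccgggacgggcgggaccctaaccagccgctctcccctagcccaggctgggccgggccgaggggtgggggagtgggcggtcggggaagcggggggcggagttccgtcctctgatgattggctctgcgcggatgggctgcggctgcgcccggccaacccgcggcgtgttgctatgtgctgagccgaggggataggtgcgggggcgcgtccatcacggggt
KLHL24, chr3:183635373-183635567, plus strand: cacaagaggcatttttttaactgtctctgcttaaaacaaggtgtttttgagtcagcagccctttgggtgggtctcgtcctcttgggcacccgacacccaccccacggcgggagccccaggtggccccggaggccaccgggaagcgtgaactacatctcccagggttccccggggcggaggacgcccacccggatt
IRS2, chr13:109786584-109786833, minus strand: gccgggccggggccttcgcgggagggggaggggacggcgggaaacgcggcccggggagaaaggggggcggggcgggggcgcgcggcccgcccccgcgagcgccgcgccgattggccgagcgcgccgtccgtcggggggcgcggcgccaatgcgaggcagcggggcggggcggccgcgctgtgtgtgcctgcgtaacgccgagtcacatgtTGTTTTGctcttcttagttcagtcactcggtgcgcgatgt
The TSC22D3 match begins at base -147 from the start of window 3, 1 of 4 windows of the gene, and the others hold no match. The IRS2 match begins at base -40. KLHL24 has a match at base -32 inside an annotated exon, so it is not in the line above, and PIK3IP1 has one at base 17 after the start of its second window. In all, 4 of 17 windows of the 10 genes held at least 1 of the 3 motifs, against 11.8% of 35116 windows of all genes. By gene this was 4 of 10, against 14.1% of 27305 genes. A gene with more windows has more room for a match, which the share by gene does not allow for. For YPEL2 the gene start in GENCODE release 29, base 59331689 on the plus strand, lies after the RefSeq start that ends the stretch shown. The windows shown for N4BP2L1 and YPEL2 hold none of these letters, which says nothing about FOXO at other positions.

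In both fractions TSC22D3 was the most abundant of the 10 genes per length. Levels here are TMM-scaled CPM, the share of a library's counts that a gene takes, and levels between genes are compared as CPM per kb of annotated exon. In WT cytoplasm TSC22D3 stood at 82.0 ± 13.6 CPM per kb (SD, n = 3), followed by CITED2 at 33.3, SESN3 at 9.47, CCNG2 at 8.48, KLHL24 at 3.89, IRS2 at 2.42, YPEL2 at 2.37, BCL6 at 1.24, PIK3IP1 at 0.942 and N4BP2L1 at 0.121. Neighbours in that order overlapped between libraries for SESN3 and CCNG2, for IRS2 and YPEL2, and for BCL6 and PIK3IP1. In K700E cytoplasm the 2 ends of the order were held by the same genes, TSC22D3 at 167.2 ± 17.3 CPM per kb (SD, n = 3) and N4BP2L1 at 0.4525 ± 0.212. There YPEL2 at 5.35 CPM per kb stood above IRS2 at 2.73. In WT nuclei TSC22D3 led at 25.6 CPM per kb, SESN3 at 10.5 and CCNG2 at 7.95 came next with overlapping libraries, and PIK3IP1 at 1.02 was last. The summed level of the 10 genes was 725 ± 75.0 CPM in WT cytoplasm and 1247 ± 75.7 in K700E cytoplasm (SD, n = 3), and 429 ± 82.2 and 568 ± 98.6 in the matching nuclei. TSC22D3 alone made up 53.8% of the summed CPM in WT cytoplasm and 63.9% in K700E cytoplasm.

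**Figure D1:**
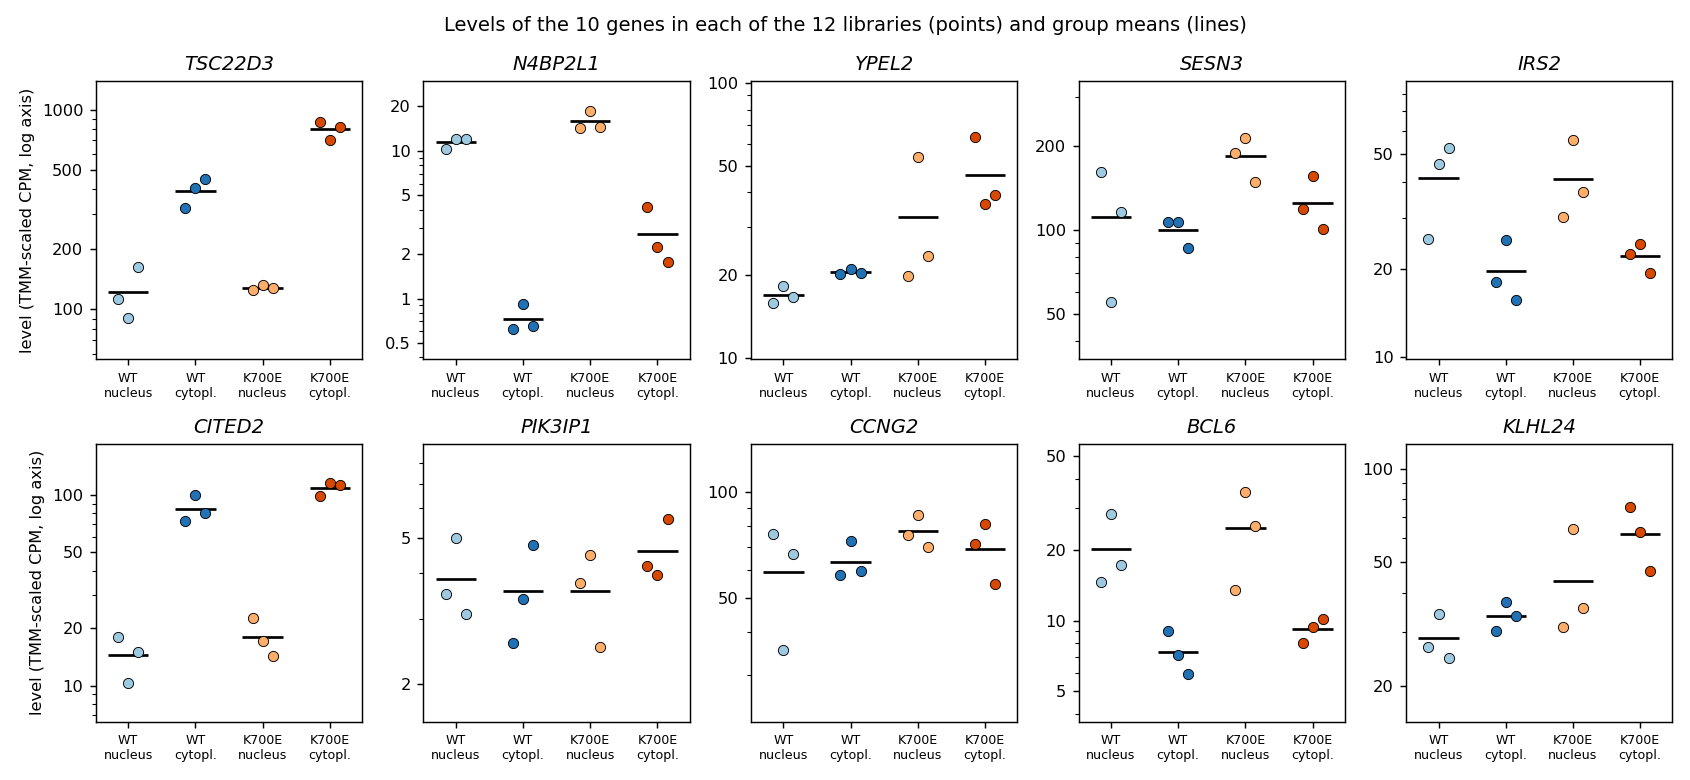
Level of each of the 10 genes in all 12 libraries, 1 panel per gene with its own log axis in TMM-scaled CPM; points are libraries and lines are means of 3 libraries. TSC22D3 in K700E cytoplasm sits between 706.2 and 867.7 CPM, above the 319.9 to 447 CPM of WT cytoplasm, while its nuclear points overlap.

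The first comparison set K700E against WT within each fraction. In the cytoplasm TSC22D3, N4BP2L1, YPEL2 and KLHL24 had every K700E library above every WT library, by 1.83-fold to 3.70-fold. The other 6 genes had overlapping libraries and fitted differences between 0.12 and 0.37 on the log2 scale. In the nucleus N4BP2L1 and YPEL2 had groups that did not overlap, TSC22D3 was close to equal, and IRS2 and PIK3IP1 had values of -0.01 and -0.11 (log2). Across all genes the cytoplasmic comparison called 0.0049% (adjusted p under 0.05 in edgeR's quasi-likelihood test), a single gene listed without a symbol as ENSG00000277104.4 (2.79 ± 0.39, log2, SE, adjusted p = 0.0396), and the nuclear one 0%, with 1389 genes at an unadjusted p under 0.05. None of the 10 genes was called in either. DESeq2 called 13 genes in the cytoplasm, among them TSC22D3 and N4BP2L1, and 1 in the nucleus, and limma voom called 0 in both. Groups did not overlap, with K700E higher, for 6.6% of all genes in the cytoplasm and 3.91% in the nucleus, and with K700E lower for 6.98% and 4.87%. Since the genes were chosen with these contrasts known, the DESeq2 calls of TSC22D3 and N4BP2L1 are no test of them. The counts of 4 of 10 and 2 of 10 are likewise a description beside those shares.

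Among the genes that act on growth-factor signalling, TSC22D3 (ENSG00000157514.17, chromosome X, 107713221 to 107777342, minus strand) encodes a leucine-zipper protein also known as GILZ, which is induced by glucocorticoids too. It stood at 319.9, 405.9 and 447 CPM in the 3 WT cytoplasmic libraries and at 867.7, 706.2 and 816.8 CPM with K700E. Every K700E library was thus above the WT range, and the fitted difference was 1.03 ± 0.23 (log2, SE), or 2.04-fold. In nuclei it stood at 113.3, 90.34 and 162.8 CPM with WT and at 124.4, 132.7 and 128.1 CPM with K700E. The K700E nuclei lay inside the WT range, and the difference was 0.07 ± 0.22 (log2, SE).

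IRS2 (chromosome 13, 109752698 to 109786568, minus strand), an adaptor that couples the insulin receptor to PI3K, had 18.06, 25.24 and 15.75 CPM in WT cytoplasm and 22.68, 24.46 and 19.5 CPM in K700E cytoplasm. The groups overlapped, with a difference of 0.17 ± 0.30 (log2, SE). Its nuclear libraries spread from 25.37 to 52.12 CPM with WT and from 30.19 to 55.46 CPM with K700E, a difference of -0.01 ± 0.29. PIK3IP1 (chromosome 22, 31281593 to 31292534, minus strand), a membrane protein that restrains PI3K, stayed between 2.529 and 5.623 CPM in all 12 libraries. Its differences were 0.35 ± 0.38 in the cytoplasm and -0.11 ± 0.39 in the nucleus (log2, SE). SESN3 (chromosome 11, 95165513 to 95232541, minus strand), a sestrin that restrains mTORC1, had 107.3, 106.8 and 86.35 CPM in WT cytoplasm and 118.9, 155.7 and 100.5 CPM with K700E. In nuclei it had 162, 55.25 and 116.5 CPM with WT and 189.1, 213.5 and 148.4 CPM with K700E. WT nuclear library 2 was the lowest of the 12 for this gene. The nuclear difference was 0.72 ± 0.30 (log2, SE) with all libraries 0.40 without that library and 1.11 without WT nuclear library 1.

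Among transcriptional regulators, CITED2 (chromosome 6, 139371807 to 139374620, minus strand), which binds the CBP coactivator, had 73.39, 99.4 and 80.79 CPM in WT cytoplasm and 98.08, 115.9 and 112.7 CPM with K700E. The highest WT library passed the lowest K700E library, and the difference was 0.37 ± 0.24 (log2, SE). In nuclei it ranged from 10.35 to 18.09 CPM with WT and from 14.22 to 22.76 CPM with K700E. BCL6 (chromosome 3, 187721377 to 187745727, minus strand), a zinc-finger repressor best known from germinal-centre B cells, had 9.074, 7.141 and 5.948 CPM in WT cytoplasm against 8.045, 9.443 and 10.18 CPM with K700E. Both groups overlapped, as they did in nuclei, where it ranged from 14.56 to 28.42 CPM with WT and from 13.5 to 35.33 CPM with K700E. Its differences were 0.32 ± 0.35 in the cytoplasm and 0.30 ± 0.33 in the nucleus (log2, SE).

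CCNG2 (chromosome 4, 77157151 to 77433388, plus strand) encodes cyclin G2, an atypical cyclin linked to cell-cycle arrest. It had 57.91, 72.41 and 59.74 CPM in WT cytoplasm and 71.29, 81.35 and 54.59 CPM with K700E, the smallest cytoplasmic difference of the 10 genes at 0.12 ± 0.26 (log2, SE). Without K700E cytoplasmic library 2 that value was -0.01. In nuclei WT library 2 stood at 35.35 CPM, below 66.58 and 76.26 CPM in the other WT libraries and 70.04 to 86.13 CPM with K700E.

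KLHL24 (chromosome 3, 183635568 to 183684477, plus strand), a substrate adaptor of cullin ubiquitin ligases, had 30.07, 37.2 and 33.73 CPM in WT cytoplasm and 75.14, 62.54 and 46.83 CPM with K700E. Its groups did not overlap there, with a difference of 0.87 ± 0.27 (log2, SE). In nuclei it had 26.86, 34.12 and 24.65 CPM with WT and 31.07, 64.01 and 35.58 CPM with K700E. A single library, K700E nuclear library 2, stood apart, and the nuclear difference was 0.61 ± 0.28 with it and 0.23 without it.

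YPEL2 (chromosome 17, 59331689 to 59401729, plus strand) encodes a small zinc-binding protein of the yippee-like family. It was even across WT cytoplasm, at 20.19, 21.09 and 20.39 CPM, and higher in each K700E cytoplasm, at 63.5, 36.3 and 39.22 CPM. The difference was 1.17 ± 0.33 (log2, SE), or 2.25-fold, and 0.88 without K700E cytoplasmic library 1. In nuclei it had 15.82, 18.16 and 16.64 CPM with WT and 19.89, 53.9 and 23.46 CPM with K700E. The K700E nuclei were all above WT, but the size of the difference, 0.94 ± 0.33 (log2, SE), rested on library 2, without which it was 0.37.

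N4BP2L1 (chromosome 13, 32400723 to 32428311, minus strand) is a little-studied gene next to N4BP2L2. Its cytoplasmic level was 0.6227, 0.9134 and 0.6536 CPM with WT, from 7, 11 and 10 reads, and 4.193, 2.245 and 1.779 CPM with K700E, from 49, 29 and 25 reads. The groups did not overlap, and the difference of 1.89 ± 0.39 (log2, SE), or 3.70-fold, was the largest of the 10 genes and rests on few reads. Without K700E cytoplasmic library 1 it was 1.45. In nuclei it stood at 10.26, 12.1 and 12.01 CPM with WT and at 14.3, 18.57 and 14.57 CPM with K700E, a difference of 0.46 ± 0.32. It shares 598 of its 6053 exonic bases with AL137247.1 and 127 with a snoRNA, RF00190, both on the same strand, and how reads there were assigned is not given in the sources used here. TSC22D3 shares 71 exonic bases with NCBP2L on the opposite strand, and BCL6, SESN3, IRS2, YPEL2 and PIK3IP1 share 36 to 318 with antisense genes. The strand setting of the counting is not given either, so reads over those bases cannot be told apart.

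**Figure D2:**
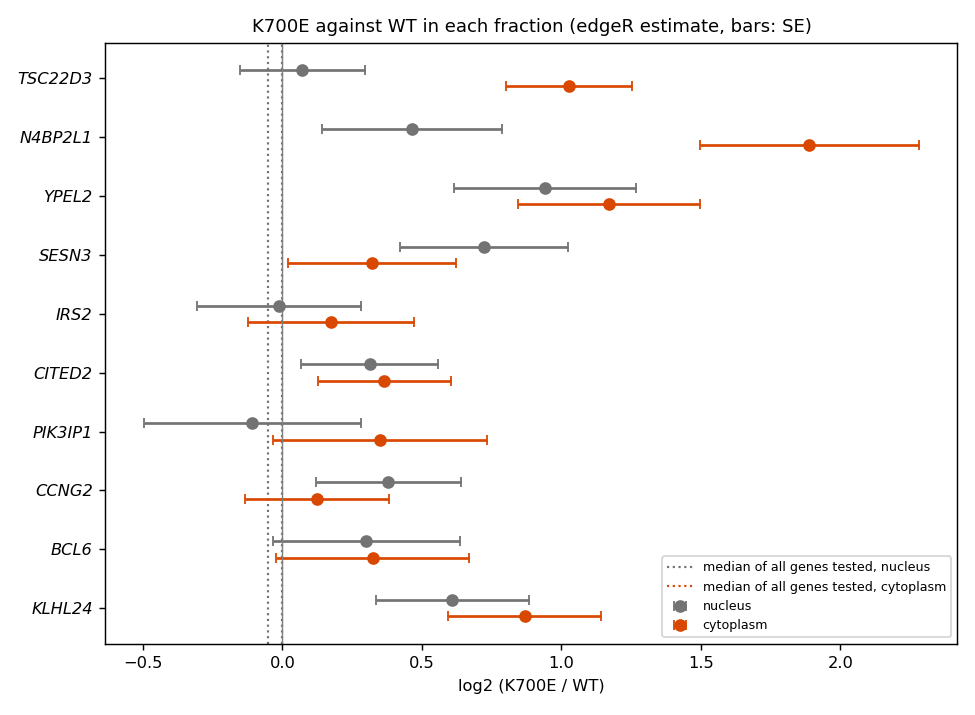
Fitted difference between K700E and WT (log2, horizontal axis) for each of the 10 genes in the nucleus (grey) and in the cytoplasm (orange), with bars of 1 SE and dotted lines at the median of all genes tested. TSC22D3 and N4BP2L1 have the widest distance between cytoplasm and nucleus, 0.07 against 1.03 and 0.46 against 1.89.

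The median difference of the 10 genes was 0.36 in the cytoplasm, where the median of all genes tested was 0, and 0.35 in the nucleus, where it was -0.05 (log2). The nuclear median was 0.22 when both nuclear libraries numbered 2 were left out, and TSC22D3 then stood at -0.13 there. Those libraries differed most in their trend with transcript GC content, fitted to log2 CPM relative to the mean of the libraries of the same fraction. The slope was 0.514 (log2 per 10 points of GC) in WT nuclear library 2 and -0.375 in K700E nuclear library 2. In the other nuclear libraries it ran from -0.059 to 0.001, and in the cytoplasm, against its own mean, from -0.174 to 0.258. SESN3, KLHL24, N4BP2L1 and CCNG2 have transcripts of 37.1%, 36.7%, 39.6% and 40.8% GC, below the median of 48.6% over 13896 coding genes. With each library's GC trend removed, the nuclear difference of KLHL24 was 0.12 and that of N4BP2L1 was 0.14 (log2). Other genes moved upward. IRS2, with 58.7% GC, went from -0.01 to 0.40, and PIK3IP1, with 54.5% GC, from -0.11 to 0.16. Over all alternatives run, GC removal included, the nuclear difference of SESN3 was at least 0.279 and that of CCNG2 at least 0.032. These lowest values came with both nuclear libraries numbered 2 left out. In the cytoplasm 0 of 13 mitochondrial mRNAs had a fitted difference above 0. Their median difference was -0.90 (log2), and 10 of 13 had an unadjusted p under 0.05 in edgeR, against 4.56% of all genes. All 13 overlapped between the groups, and none was called by edgeR, DESeq2 or limma voom. Their summed level was 4473 to 18780 CPM in WT, a range that encloses the 6108 to 7162 CPM of K700E cytoplasm. The part of GC content and of mitochondrial RNA in the values of the 10 genes was not tested beyond the correction for GC.

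The second comparison asked whether the cytoplasm-to-nucleus ratio differed between constructs, the quantity closest to the export named in the series title. The ratio of TSC22D3 was 3.20-fold with WT and 6.21-fold with K700E, a change of 0.96 ± 0.32 (log2, SE). N4BP2L1 was 15.5-fold lower in cytoplasm than in nuclei with WT and 5.79-fold lower with K700E, a change of 1.42 ± 0.50. For the other 8 genes the change ran from -0.40 ± 0.43 for SESN3 to 0.46 ± 0.55 for PIK3IP1, each smaller than its SE. The test called 0% of all genes and none of the 10 (edgeR's quasi-likelihood test), with 672 of 20394 genes at an unadjusted p under 0.05, while DESeq2 called 3 genes and limma voom 0. The median change was 0.21 for the 10 genes and 0.05 for all genes tested (log2). It was 0.035 without K700E nuclear library 1 and 0.551 without K700E nuclear library 2. With each library left out in turn TSC22D3 ran from 0.685 to 1.13 and N4BP2L1 from 0.981 to 1.651. YPEL2 ran from -0.071 (without K700E cytoplasmic library 1) to 0.803 (without K700E nuclear library 2). KLHL24 ran from 0.061 to 0.638, and stood at 0.648 with the GC trend removed. SESN3 ran from -0.785 (without WT nuclear library 1) to -0.079 (without WT nuclear library 2), and PIK3IP1 from 0.231 (without WT nuclear library 2) to 0.717 (without WT cytoplasmic library 3).

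The third comparison set cytoplasm against nucleus over both constructs, which the choice of the genes did not use, and here they were tested. CITED2 and TSC22D3 were higher in the cytoplasm, N4BP2L1, BCL6 and IRS2 were lower, and the remaining 5 did not pass. CITED2 was 5.92-fold higher (2.57 ± 0.18, log2, SE, adjusted p = 2.31e-09 in edgeR's quasi-likelihood test) and TSC22D3 4.46-fold higher (2.16 ± 0.17, adjusted p = 5.99e-09), with all 6 cytoplasmic libraries above all 6 nuclear ones for each. N4BP2L1 was 9.48-fold lower (-3.24 ± 0.26, edgeR adjusted p = 1.07e-08), BCL6 2.70-fold lower (-1.43 ± 0.24, adjusted p = 5.04e-05) and IRS2 1.96-fold lower (-0.97 ± 0.21, adjusted p = 0.000489). For these 3 genes all 6 cytoplasmic libraries were below all 6 nuclear ones. Among all genes 32.1% were called higher and 44.8% lower in the cytoplasm, both above the shares of 2 and 3 of 10. CPM is a share of each fraction's own library, so the ratios give no amount of RNA per cell. With scaling by library size alone the split of all genes was 4758 higher to 11121 lower in place of 6546 to 9146, and the median of all genes moved from -0.35 to -0.82 (log2). The 5 genes called kept their direction and call under every scaling tried.

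The genes that did not pass were KLHL24 (0.37 ± 0.19, edgeR adjusted p = 0.0927), YPEL2 (0.40 ± 0.23, adjusted p = 0.12), SESN3 (-0.35 ± 0.21, adjusted p = 0.139), PIK3IP1 (0.12 ± 0.27, adjusted p = 0.688) and CCNG2 (-0.04 ± 0.18, adjusted p = 0.867). Several of these turned on the processing or on single libraries. SESN3 passed with library size alone (-0.81, edgeR adjusted p = 0.0015), upper quartile factors (-0.71, adjusted p = 0.00456), a filter of 1 CPM in all libraries (-0.67, adjusted p = 0.00886), the K700E libraries alone (-0.61, adjusted p = 0.0274) and the GC trend removed (-0.31, adjusted p = 0.0315). CCNG2 passed with library size alone (-0.49, edgeR adjusted p = 0.0157), and YPEL2 and KLHL24 with every gene of at least 1 count kept (0.50 and 0.47, adjusted p = 0.0314 and 0.0341). Without K700E nuclear library 2, YPEL2 stood at 0.71 and KLHL24 at 0.58 (log2), and both passed with edgeR adjusted p = 0.00221 and 0.00572. Without WT nuclear library 2, SESN3 at -0.47 and KLHL24 at 0.49 passed, with edgeR adjusted p = 0.013 and 0.0318. KLHL24 also passed without K700E cytoplasmic library 3, at 0.49 with edgeR adjusted p = 0.0306.

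**Figure D3:**
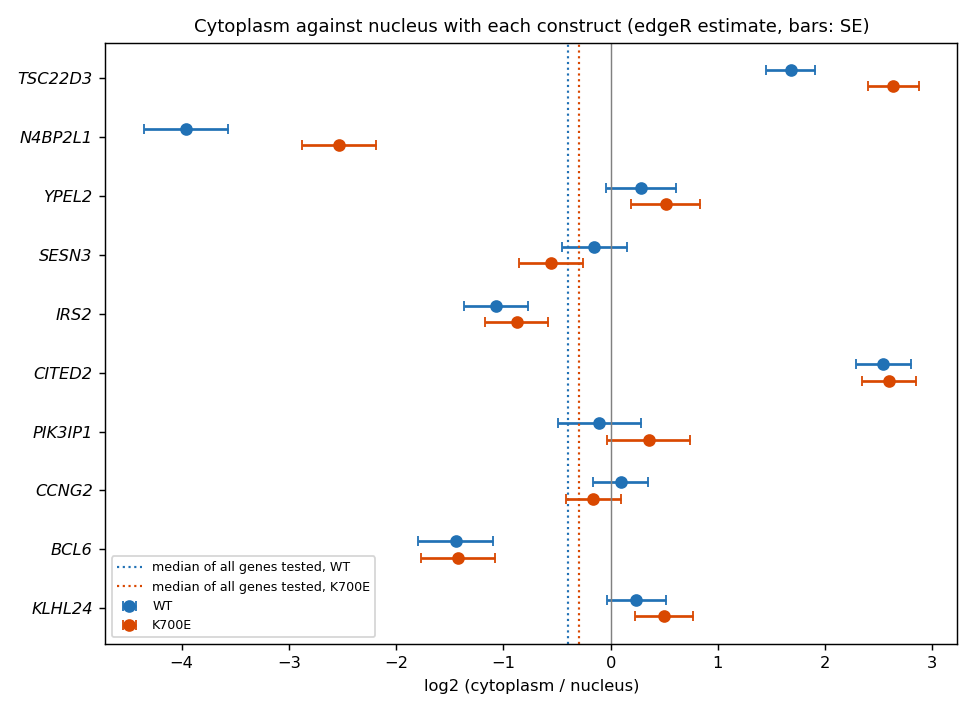
Cytoplasm-to-nucleus ratio (log2, horizontal axis) of each of the 10 genes with WT (blue) and with K700E (orange), with bars of 1 SE and dotted lines at the median of all genes tested. CITED2 and TSC22D3 lie to the right with both constructs and N4BP2L1, BCL6 and IRS2 to the left; TSC22D3 and N4BP2L1 have their K700E points to the right of their WT points.

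Within groups the 10 genes did not rise and fall as a block. After the mean of each group was subtracted, the Pearson correlation of log2 CPM over the 12 libraries was positive for 27 of 45 pairs, with a median of 0.089. SESN3 and CCNG2 had the highest value, 0.944, and YPEL2 and KLHL24 had 0.878, while CITED2 and BCL6 had the lowest, -0.701. The 12 points share their libraries, depth and base composition, and WT nuclear library 2 is low for both SESN3 and CCNG2, as K700E nuclear library 2 is high for both YPEL2 and KLHL24. The biological coefficient of variation was 0.203 for TSC22D3, lower than for most genes tested, and 0.312 for PIK3IP1, close to the median of 0.303.

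The pathway upstream was read from lists of other genes. Of the FOXO factors, FOXO1, FOXO3 and FOXO4 were tested, and FOXO6 had 2 reads in all 12 libraries together. None of the 3 was called between constructs in either fraction by edgeR, DESeq2 or limma voom, and 0 had an unadjusted p under 0.05 in edgeR. FOXO1 stood at 39.0 ± 5.93 CPM in WT and 42.2 ± 5.43 CPM in K700E cytoplasm (SD, n = 3), a difference of 0.12 ± 0.23 (log2, SE). FOXO3 stood at 152.8 ± 6.49 and 169.8 ± 8.89 CPM, a difference of 0.15 ± 0.19 with every K700E library above every WT library, and FOXO4 at 24.3 ± 3.80 and 32.3 ± 6.51 CPM, a difference of 0.41 ± 0.28. In nuclei their differences were 0.15 ± 0.23, -0.17 ± 0.19 and 0.26 ± 0.30 for FOXO1, FOXO3 and FOXO4 (log2, SE). Between fractions FOXO4 (1.86 ± 0.21, edgeR adjusted p = 5.74e-07) and FOXO3 (0.77 ± 0.13, adjusted p = 6.13e-05) were higher in the cytoplasm, and FOXO1 did not pass (0.07 ± 0.16, adjusted p = 0.72).

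Of 29 genes for insulin, PI3K and AKT signalling, all tested, none was called between constructs in either fraction (edgeR, DESeq2 or limma voom, with 1 gene in the cytoplasm and 4 in the nucleus at an unadjusted p under 0.05 in edgeR), and their median difference was 0.01 in the cytoplasm and 0.04 in the nucleus (log2). By the rule of the smallest p, the nuclear examples were INPPL1, a lipid phosphatase of the pathway, at -0.76 ± 0.29 (log2, SE), and TSC2, which restrains mTORC1, at -0.88 ± 0.36. WT nuclear library 2 stood apart for both: INPPL1 stood at 522.8 CPM against 248.8 and 270.8 in the other WT nuclei and TSC2 at 402.5 against 123.2 and 136.5. The cytoplasmic examples were PIK3CD, a catalytic subunit of PI3K, with 15.21 to 19.22 CPM in WT and 25.39 to 32.88 CPM in K700E cytoplasm (0.69 ± 0.28), and PIK3R2, a regulatory subunit, which had no reads in 4 of the 6 cytoplasmic libraries and at most 0.6536 CPM in the other two. The annotation marks the PIK3R2 locus as overlapping another gene on the same strand, AC007192.1, so reads may be split between them and these zeros do not show that the RNA is absent.

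Of 25 regulators and cofactors of FOXO, 23 were tested and none was called by any of these tools, with 0 in the cytoplasm and 1 in the nucleus at an unadjusted p under 0.05 in edgeR and a median of -0.05 in the cytoplasm and 0.19 in the nucleus (log2). PRKAA2, a catalytic subunit of AMPK, had 0.53 ± 0.25 and MAPK8, the JNK kinase, 0.48 ± 0.24 in the nucleus (log2, SE). In the cytoplasm YWHAB, an adaptor of the family that retains FOXO there, had -0.28 ± 0.22, and CTNNB1, which encodes beta-catenin, a FOXO cofactor, had -0.33 ± 0.29.

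Of 51 further FOXO targets, 45 were tested and edgeR called none between constructs, with 7 in the cytoplasm and 6 in the nucleus at an unadjusted p under 0.05, against 4.56% and 6.81% of all genes. The list was chosen with earlier results of these data known. In the cytoplasm DESeq2 called 2 of them, PCK1 and TXNIP, and limma voom 0. Their median was 0.18 in the cytoplasm, where 29 of 45 were positive against 49.6% of all genes, and 0.09 in the nucleus, where 26 of 45 were against 45.8% (log2). The list does not mark whether FOXO raises or lowers each gene, so these counts give no direction of FOXO activity. PCK1, the gluconeogenic enzyme PEPCK and a classical FOXO target, had 1.156, 1.495 and 1.046 CPM in WT cytoplasm and 5.991, 3.948 and 6.121 CPM with K700E. Its groups did not overlap, and its difference was 2.11 ± 0.45 (log2, SE, edgeR adjusted p = 0.689). TXNIP, the thioredoxin-binding arrestin, had 57.47, 69.75 and 89.29 CPM in WT and 452.5, 159.1 and 188.9 CPM in K700E cytoplasm, a difference of 1.89 ± 0.45 (edgeR adjusted p = 0.797). In nuclei TXNIP overlapped between constructs, from 25.38 to 75.48 CPM with WT and from 70.69 to 194.3 CPM with K700E, at 1.40 ± 0.44, and PNPLA2, a triglyceride lipase, had -0.83 ± 0.29 (log2, SE).

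Family relatives of the 10 genes gave no call by the 3 tools among 15 tested of 18 (0 in the cytoplasm and 1 in the nucleus at an unadjusted p under 0.05 in edgeR), with a median of 0.11 in the cytoplasm and 0.09 in the nucleus (log2). YPEL1 had 0.80 ± 0.41 and YPEL5 0.50 ± 0.30 in the cytoplasm, and TSC22D2 had 0.63 ± 0.26 and YPEL3 -0.78 ± 0.51 in the nucleus (log2, SE). Glucocorticoid-response genes were listed because TSC22D3 is one of the genes that glucocorticoids induce. None of the 11 was called by the 3 tools (2 in the cytoplasm and 1 in the nucleus at an unadjusted p under 0.05 in edgeR), and their median was 0.26 in the cytoplasm and 0.17 in the nucleus. KLF9, a zinc-finger factor also listed as a FOXO target, had 96.17, 95.33 and 88.24 CPM in WT and 190.8, 136.9 and 112.1 CPM in K700E cytoplasm (0.65 ± 0.27, log2, SE), and 0.73 ± 0.28 in the nucleus. DDIT4, an mTORC1 inhibitor on both lists too, had 0.59 ± 0.26 in the cytoplasm with overlapping groups. PER1, a clock gene, had -0.61 ± 0.37 in the nucleus.

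**Figure D4:**
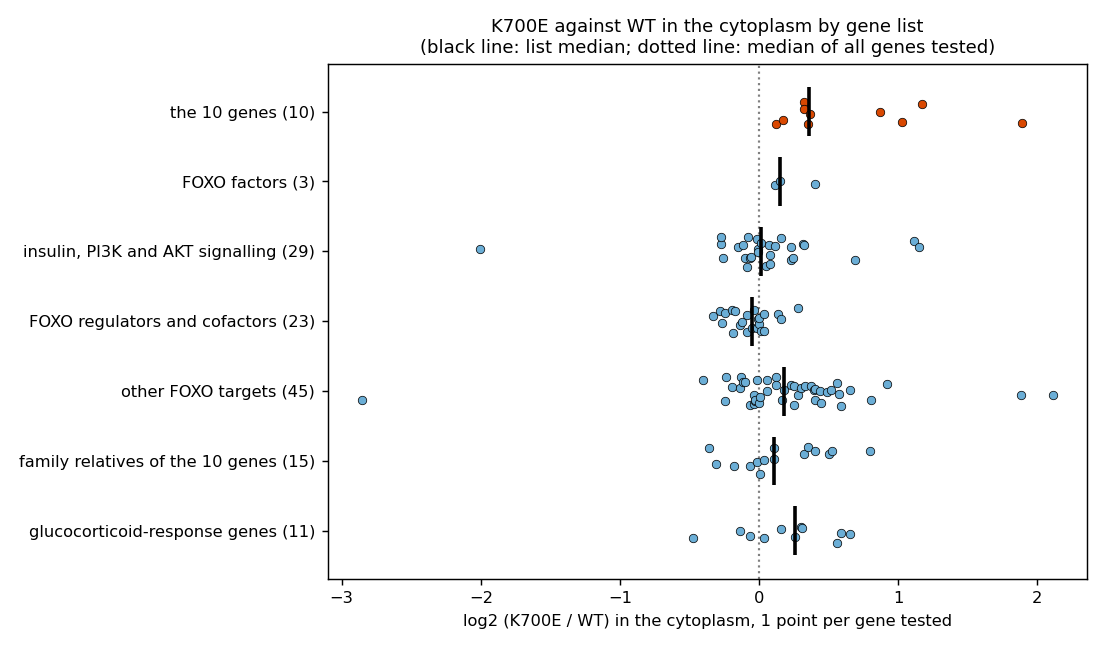
Difference between K700E and WT in the cytoplasm (log2, horizontal axis), 1 point per gene tested, for the 10 genes and 6 lists of related genes with the number tested in brackets; black lines are list medians and the dotted line is the median of all genes. The medians are 0.36 for the 10 genes, 0.18 for other FOXO targets and 0.01 for insulin, PI3K and AKT signalling.

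The genes whose pattern was most like that of TSC22D3 over the 12 libraries, after the mean of each fraction was subtracted, were BHLHE40 (Pearson r = 0.904), NUP50-DT (0.896), LINC01138 (0.895), ABRAXAS1 (0.887) and MTSS1 (0.887), out of 11657 genes that averaged 5 CPM or more. BHLHE40, a basic helix-loop-helix repressor, differed by 0.93 ± 0.23 in the cytoplasm and 0.41 ± 0.23 in the nucleus (log2, SE). For N4BP2L1 they were LIMCH1 (0.914), SCAPER (0.911), LPAR3 (0.910), UNC5CL (0.905) and LINC01003 (0.905), with cytoplasmic differences from 0.66 to 1.10 (log2). These values contain the difference between constructs and describe these libraries.

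The mRNAs of the 10 genes were compared in features that played no part in their choice, by the longest coding transcript in GENCODE release 29. Their 3′ untranslated regions had a median length of 3284 bases against 1403 bases over 13896 coding genes tested, and 8 of 10 were longer than that median. SESN3 had 7742 bases, KLHL24 5191, YPEL2 4539 and CCNG2 4135, while TSC22D3 with 1295 and CITED2 with 1325 were the 2 below the median. The pentamer ATTTA, the core of AU-rich elements, occurred a median of 8 times against 2, with 29 copies in SESN3, 19 in KLHL24 and 1 each in TSC22D3 and BCL6. The 2 genes called higher in the cytoplasm were those with the 2 shortest of the 10 regions, and N4BP2L1, the lowest in the cytoplasm, had 2218 bases. A longer region has room for more copies, and no test was made of these features.

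Library totals ran from 9086743 to 11200562 counts in nuclei and from 13422598 to 18116929 in cytoplasm. All 6 markers listed for HEK293T cells were detected, with a summed level of 1030 to 1270 CPM in cytoplasm. In nuclei that sum was 225.1 to 467.8 CPM with WT and 320 to 389.5 CPM with K700E. Over all libraries 6 blood cell markers summed to 1.512 to 13.24 CPM, highest in WT nuclei, with 1 of them at 0. The 6 fibroblast and matrix markers summed to 16.49 to 120.0 CPM, also highest in WT nuclei. All 13 mitochondrial mRNAs were called higher in the cytoplasm and all 4 tested nuclear-retained RNAs lower (edgeR's quasi-likelihood test), which checks the fraction labels.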

How the data were processed

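The authors deposited 1 file of raw counts per gene for each of the 12 libraries, made from Trizol extracts with NEBNext Ultra kits, per the labels' protocols. HISAT2 and DESeq are named without versions, per the submitters' processing notes. The genome build, annotation, counting program, strand setting and RNA selection were not given in the sources used here. The members and gene lists were chosen with earlier results of these data known. Gene IDs (67049) were matched to symbols (60463) and to GENCODE release 29 on GRCh38 (58440 IDs, 99.7% of counts). Of 179 listed genes 178 were matched. Tests used R 4.3.3 and edgeR 4.0.16: quasi-likelihood F tests on all 12 libraries, 1 term per group, TMM scaling, filterByExpr (minimum count 10, minimum total 15) and Benjamini-Hochberg adjustment over 20394 genes, called under 0.05. The SE is the size of the log2 difference divided by the root of F, and the prior count was 2.

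Named genes were the 10, the FOXO factors, and from each other list, per comparison of constructs, up to 4 called genes or, with none called, the 2 with the smallest p and a mean of at least 1 CPM. The 5 genes most like TSC22D3 and N4BP2L1 were added. No block for replicate number entered the fits. The fits were also run on simulated counts with known changes and the same spread for all genes, and the outcome is not given here. Alternatives were DESeq2 1.42.0, limma 3.58.1 voom, other scalings and filters, replicate blocks and each library left out. Removal of a GC trend and of both nuclear libraries numbered 2 were added after the data were seen. Promoter windows are RefSeq's.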

Additional observations from a re-analysis of the deposited data

How the results depend on the processing

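The 5 genes called between fractions were called under each of the 24 alternatives run, except that N4BP2L1 did not enter the filter of 1 CPM in all libraries. The count of the 10 genes called between fractions was 5 to 7 with each library left out and 8 with both nuclear libraries numbered 2 left out, where YPEL2 (0.73), KLHL24 (0.647) and SESN3 (-0.443) passed too. With library size alone the median of the 10 genes became -0.415 (log2), and YPEL2 (-0.051), PIK3IP1 (-0.337) and KLHL24 (-0.089) changed sign. Upper quartile factors turned PIK3IP1 (-0.249) and KLHL24 (-0.001), every gene with 1 count turned CCNG2 (0.057), 1 CPM in all libraries turned PIK3IP1 (-0.197) and left 9124 genes called, since fewer genes were tested, and WT libraries alone turned PIK3IP1 (-0.12) and CCNG2 (0.095). CCNG2 ran from -0.124 to 0.125 with each library left out. Apart from the filters the cause was not tested.

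Between constructs in the cytoplasm, DESeq2 called 2 of the 10 genes (TSC22D3 and N4BP2L1) and every gene with 1 count called 2 (N4BP2L1 and YPEL2). The 10 genes were chosen with this contrast known, so these calls are no test of them. Of all genes 13 were called with DESeq2, 85 with every gene with 1 count, and 0 with limma voom, only the 6 libraries compared, both nuclear libraries numbered 2 left out or the GC trend removed. The range was 0 to 2 with each library left out. In the nucleus DESeq2 called 1 gene and every gene with 1 count 36, with 0 to 1 when each library was left out. For the ratio these were 3, 31 and 0 to 1. With 929 genes in the cytoplasm and 1389 in the nucleus at an unadjusted p under 0.05, no other alternative called a gene in the nucleus.

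Same-numbered libraries did not deviate together across all pairs of groups, where their correlations ran from -0.493 to 0.607. Between WT and K700E cytoplasm they were all positive, at 0.063, 0.377 and 0.607, against -0.56 to 0.379 for unlike numbers. The numbers were not taken to pair the samples, and whether they mark a shared batch in the cytoplasm was not tested. With the replicate number as a block 0 genes were called in the cytoplasm and 5 of the 10 between fractions. A block of construct and number could not be fitted for constructs within a fraction. Low counts limit N4BP2L1 in the cytoplasm, with 7 to 11 reads in WT.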
